A study of Mus musculus with 8 samples.

Results

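The Toll-like receptors described here are the 10 genes Tlr1, Tlr2, Tlr3, Tlr4, Tlr5, Tlr6, Tlr7, Tlr8, Tlr9 and Tlr13, chosen by gene symbol from a pair of gene expression tables, one for each diet. They are 10 of the 16136 genes that both tables list. RNA was sequenced from macrophages of the epididymal white adipose tissue (eWAT) of male WT C57BL/6J mice fed from 6 weeks of age on either chow (ND, normal diet) or a high-fat diet (HFD), the latter for 8 weeks. Adhesion-related macrophages (ARM) were sorted by flow cytometry from the adipocyte layer of the digested tissue, and stromal vascular fraction macrophages (SM, which the labels call NARM) from the pelleted cells. Before sorting, the adipocyte layer was vortexed with beads to break the adipocytes, a step the paper does not describe for the pelleted cells. Differences between ARM and SM therefore cannot be told apart from this handling. Each of the 4 groups has 2 libraries, and each library is a pool of 6 HFD mice or 10 ND mice. The libraries held 18415520 and 18288775 counts for HFD ARM, 19040133 and 18992793 for HFD SM, 16319038 and 14508824 for ND ARM, and 14861075 and 15833762 for ND SM.

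Toll-like receptors are membrane proteins that bind conserved molecules of microbes, and some also respond to material released by injured cells. Those at the cell surface bind lipoproteins, lipopolysaccharide or flagellin, while those in endosomes bind nucleic acids, and most of them signal through the adaptor Myd88 to NF-kB, AP-1 and interferon regulatory factors. Macrophages of adipose tissue carry many of them, and Tlr4 in particular has been studied in obesity for its response to lipopolysaccharide and saturated fat.

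The macrophage label was checked against 8 defining markers (Adgre1, Csf1r, Cd68, Itgam, Fcgr1, Mertk, C1qa and Mrc1). Levels are given as FPKM, fragment counts scaled to transcript length and library depth, which allows genes to be compared with each other. The 8 markers summed to 6160 and 5890 FPKM in HFD ARM, 6220 and 6220 in HFD SM, 6490 and 6700 in ND ARM, and 6820 and 6610 in ND SM. C1qa, a complement subunit, was the most abundant of them (mean 2840 FPKM in HFD and 2930 in ND), and none of the 8 averaged under 1 FPKM in either diet. All libraries thus carried the markers their label names.

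The level of the 10 receptors spanned a wide range that was ordered alike at its top and bottom in each group. Tlr2 had the highest FPKM in each of the 4 groups, followed by Tlr7, Tlr8 and Tlr5, and the lowest were Tlr6 and then Tlr3. In HFD ARM the mean level was 205 ± 2.11 FPKM for Tlr2 (SD, n = 2), 83.2 ± 6.75 for Tlr7, 46.4 ± 0.354 for Tlr8, 30.7 ± 5.13 for Tlr5, 23.6 ± 0.735 for Tlr9, 22.2 ± 0.0707 for Tlr13, 17.7 ± 2.01 for Tlr1, 10.5 ± 0.177 for Tlr4, 6.75 ± 0.163 for Tlr6 and 3.54 ± 0.00707 for Tlr3. No neighbours in that order overlapped between libraries of HFD ARM. The middle of the order was less settled elsewhere. Tlr9 and Tlr13 overlapped in HFD SM, ND ARM and ND SM, Tlr1 and Tlr4 overlapped in HFD SM, and Tlr9 and Tlr4 overlapped in ND ARM. Summed over the 10 receptors, the level lay between 425 and 475 FPKM in the 8 libraries, and Tlr2 made up 37.3% to 46.2% of it. The 5 endosomal receptors Tlr3, Tlr7, Tlr8, Tlr9 and Tlr13 made up 38.0% to 41.1%.

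**Figure D1:**
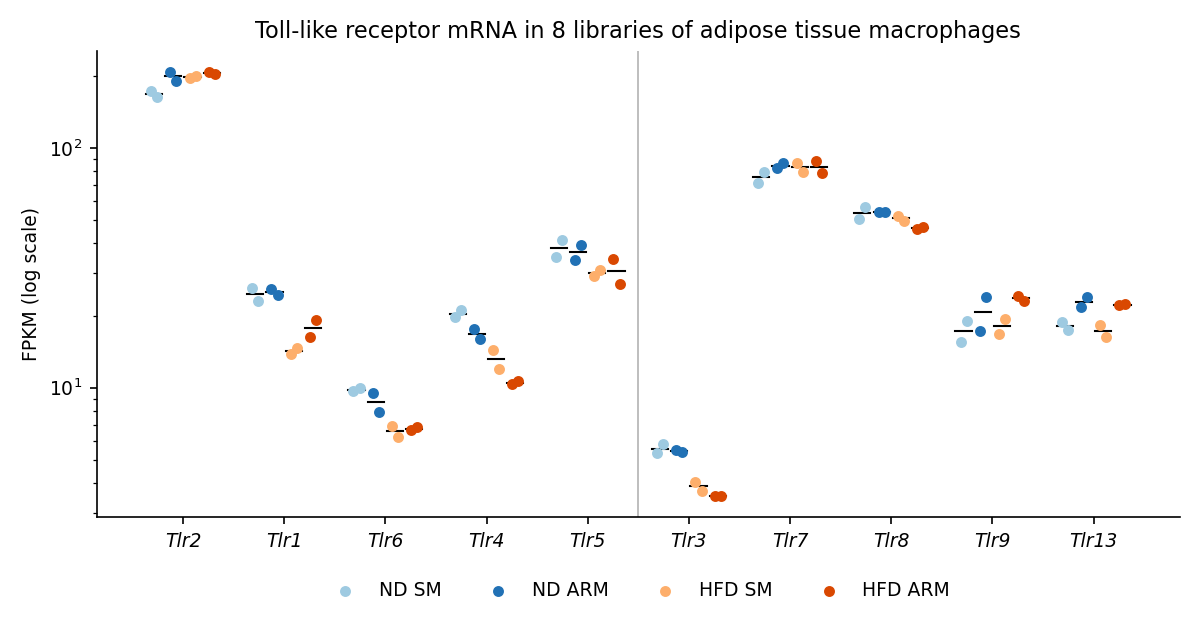
Level of each Toll-like receptor in FPKM (log scale) in the 8 libraries, with 1 point per library, colours for the 4 groups and a bar at each group's mean, surface receptors to the left of the vertical line and endosomal ones to the right. Tlr2 lies between 163 and 207 FPKM in all libraries and Tlr3 between 3.53 and 5.82.

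The comparison of ARM with SM asks whether macrophages attached to adipocytes differ in these receptors from those of the stromal fraction, and it was made within each diet's own table. A gene was called when its fold change was over 1.5 and its edgeR adjusted p was under 0.05. None of the 10 receptors was called in either diet. In HFD 0 of 10 were called against 4.75% of the 13337 genes tested, and in ND 0 of 10 against 3.68% of 12441. At an unadjusted p under 0.05, edgeR listed 5 of 10 receptors in HFD and 3 in ND, against 23.2% and 14.9% of all genes, and DESeq2 and limma each also called 0 of 10 in both diets. Where calls by DESeq2 or limma are counted below, DESeq2 used the genes that passed edgeR's filter, and limma, at a pseudocount of 1, only the genes with at least 1 FPKM in 2 libraries (11078 in HFD and 10804 in ND, with all 10 receptors among them). All 10 passed the filter on low counts, with at least 281 counts in each library. Without the fold threshold, 3 of 10 had an adjusted p under 0.05 in HFD (Tlr4, Tlr9 and Tlr13), against 9.55% of all genes, and 0 of 10 in ND, against 4.73%. The ND count was 1 with one fit of 8 libraries, against 5.80%, and 3 with a replicate block, against 11.7%. The number of all genes called was 634 in HFD and 458 in ND, and it was 309 and 214 without HFD ARM replicate 1 and 2, and 188 and 254 without ND ARM replicate 2 and ND SM replicate 1.

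The size of the differences was bounded by intervals. In edgeR with all libraries the 95% interval of the fold change lay within 1.5-fold in either direction (0.585 on the log2 scale) for 10 of 10 receptors in HFD, against 68.0% of all genes, and for 10 of 10 in ND, against 65.4%. The lowest interval bound of any receptor was a log2 fold change of -0.54 in HFD and -0.48 in ND, and the highest was 0.53 and 0.56. Fewer lay within 1.5-fold under other settings. In HFD it was 8, 8, 9 and 8 of 10 without ARM replicate 1, ARM replicate 2, SM replicate 1 and SM replicate 2, and 9 with no filter (edgeR or limma) or one fit of 8 libraries. In ND it was 6, 8 and 9 without ARM replicate 1, SM replicate 1 and SM replicate 2, 8 in DESeq2, and 9 in limma at a pseudocount of 0.1 or with no filter. The median log2 fold change of the receptors was 0.01 in HFD and 0.02 in ND, beside -0.01 and -0.02 for all genes. FPKM of the 2 ARM and 2 SM libraries did not overlap for 7 of 10 receptors in HFD, against 50.5% of all genes, and for 5 of 10 in ND, against 43.3%. Since the libraries are pools with 2 per group, an exact permutation test for a single gene cannot go below a two-sided p of 0.333, and the adjusted p-values rest on the spread edgeR pools across genes.

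**Figure D2:**
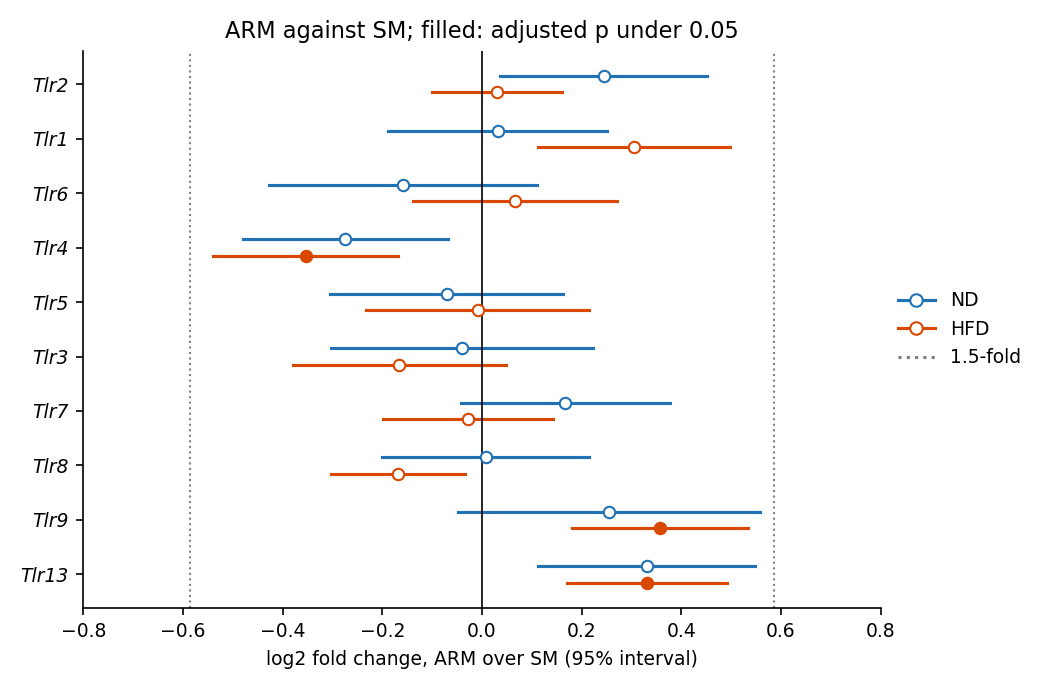
Log2 fold change of ARM over SM for each receptor in HFD (red) and ND (blue), with 95% intervals from edgeR, filled points for an adjusted p under 0.05 and dotted lines at 1.5-fold. All 20 intervals lie between the dotted lines, and the filled points are Tlr4 (-0.35), Tlr9 (0.36) and Tlr13 (0.33) in HFD.

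Tlr2 (Entrez 24088, chr3:83836272-83841767 of mm10, minus strand) recognises bacterial lipoproteins, in pairs with Tlr1 or Tlr6. Its level was 207 and 204 FPKM in HFD ARM and 196 and 199 in HFD SM, and 207 and 190 in ND ARM and 173 and 163 in ND SM. The ARM libraries were above the SM libraries in both diets, although in HFD they overlapped as counts scaled by TMM, edgeR's correction for library size and composition. The log2 fold change was 0.03 in HFD (edgeR adjusted p = 0.822) and 0.24 in ND (0.224), so neither passed the test.

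Tlr1 (Entrez 21897, chr5:64924679-64933563, minus strand) and Tlr6 (Entrez 21899, chr5:64952031-64960097, minus strand) lie 18467 bases apart, and each pairs with Tlr2. The level of Tlr1 was 16.3 and 19.1 FPKM in HFD ARM and 13.8 and 14.6 in HFD SM, and 25.8 and 24.5 in ND ARM and 26.2 and 23.0 in ND SM. Both HFD ARM libraries were above both HFD SM libraries, while the ND groups overlapped. The log2 fold change of Tlr1 was 0.31 in HFD (95% interval 0.11 to 0.50, edgeR adjusted p = 0.0531) and 0.03 in ND (0.937). Tlr6 was at 6.24 to 6.90 FPKM in the 4 HFD libraries and 7.89 to 9.94 in the 4 ND libraries. ARM and SM overlapped for Tlr6 in HFD, and in ND both ARM libraries were below both SM libraries on the FPKM scale but overlapped them as TMM-scaled counts. Counts of Tlr1 and Tlr6 were not whole numbers in any of the 8 libraries, as is usual where reads are shared between similar genes, and the level of each is less certain for it.

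Tlr4 (Entrez 21898, chr4:66827584-66930284, plus strand) is the receptor for lipopolysaccharide, with the cofactors Ly96 and Cd14. Its level was 10.4 and 10.6 FPKM in HFD ARM and 14.3 and 12.0 in HFD SM, and 17.6 and 16.01 in ND ARM and 19.6 and 21.1 in ND SM. Both ARM libraries were below both SM libraries in each diet. The log2 fold change was -0.35 in HFD (SE 0.0833, 95% interval -0.54 to -0.17, edgeR adjusted p = 0.0253) and -0.27 in ND (SE 0.0965, 95% interval -0.48 to -0.07, edgeR adjusted p = 0.147). The HFD difference passed the adjusted p but stayed under 1.5-fold. In bulk samples such as these, fewer cells that carry a transcript and less RNA per cell cannot be told apart.

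Tlr5 (Entrez 53791, chr1:182954788-182976044, plus strand), the receptor for bacterial flagellin, was at 27.0 to 34.3 FPKM in the HFD libraries and 33.9 to 41.5 in the ND libraries. ARM and SM overlapped in both diets, with log2 fold changes of -0.01 in HFD and -0.07 in ND, and the HFD value turned positive (0.02) when counts were scaled by library totals.

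Among the endosomal receptors, Tlr3 (Entrez 142980, chr8:45395665-45411080, minus strand) binds double-stranded RNA. It had 281 to 388 counts per library, the fewest of the 10, and 3.53 to 5.82 FPKM. In HFD both ARM libraries (3.54 and 3.53 FPKM) were below both SM libraries (4.06 and 3.71), and in ND the groups overlapped. Its log2 fold change was -0.17 in HFD (edgeR adjusted p = 0.346) and -0.04 in ND (0.933).

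Tlr7 (Entrez 170743, chrX:167304929-167330558, minus strand) and Tlr8 (Entrez 170744, chrX:167242696-167264329, minus strand) are neighbours, 40599 bases apart, and Tlr7 binds single-stranded RNA. Tlr7 was at 71.2 to 88.0 FPKM over the 8 libraries, with log2 fold changes of -0.03 in HFD, where the groups overlapped, and 0.17 in ND, where both ARM libraries were above both SM libraries. The HFD value was 0.00 with library totals, so its sign is not settled. Tlr8 was at 46.1 and 46.6 FPKM in HFD ARM and 52.0 and 49.7 in HFD SM, and 53.8 and 54.0 in ND ARM and 50.7 and 56.9 in ND SM. Both HFD ARM libraries were below both HFD SM libraries and the ND groups overlapped, but the test was passed in neither diet (log2 fold change -0.17 in HFD and 0.01 in ND, edgeR adjusted p = 0.119 and 0.985).

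Tlr9 (Entrez 81897, chr9:106222598-106226883, plus strand) binds DNA rich in unmethylated CpG, and Tlr13 (Entrez 279572, chrX:106143204-106160493, plus strand) binds bacterial ribosomal RNA. The level of Tlr9 was 24.1 and 23.1 FPKM in HFD ARM and 16.8 and 19.3 in HFD SM, and 17.3 and 23.9 in ND ARM and 15.6 and 19 in ND SM. Both HFD ARM libraries were above both HFD SM libraries, while in ND the groups overlapped because ND ARM replicate 1 lay between the SM libraries. The log2 fold change of Tlr9 was 0.36 in HFD (SE 0.0794, 95% interval 0.18 to 0.53, edgeR adjusted p = 0.0196) and 0.26 in ND (SE 0.142, 95% interval -0.05 to 0.56, edgeR adjusted p = 0.46), and without ND ARM replicate 2 the ND value was -0.0042. Tlr13 was at 22.1 and 22.2 FPKM in HFD ARM and 18.3 and 16.3 in HFD SM, and 21.6 and 23.8 in ND ARM and 18.8 and 17.5 in ND SM. Each ARM library was above each SM library of its diet. The log2 fold change of Tlr13 was 0.33 in HFD (SE 0.0719, 95% interval 0.17 to 0.49, edgeR adjusted p = 0.0177) and 0.33 in ND (SE 0.102, 95% interval 0.11 to 0.55, edgeR adjusted p = 0.0891).

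The stretches upstream of Tlr9 and Tlr13 are shown because these 2 receptors had the smallest p-values in HFD and both had higher values in ARM. They are taken from RefSeq for GRCm38.p6 and run 5′ to 3′ on the plus strand up to the base before the gene's start, at chr9:106222348-106222597 for Tlr9 (250 bases) and chrX:106143025-106143203 for Tlr13 (179 bases, where the listed window overlaps no exon). Capitals mark the letters TGANTCA (AP-1) and GAGGAA (for PU.1, an ETS factor), each searched on both strands. Other letters that ETS factors bind were not searched.
Tlr9: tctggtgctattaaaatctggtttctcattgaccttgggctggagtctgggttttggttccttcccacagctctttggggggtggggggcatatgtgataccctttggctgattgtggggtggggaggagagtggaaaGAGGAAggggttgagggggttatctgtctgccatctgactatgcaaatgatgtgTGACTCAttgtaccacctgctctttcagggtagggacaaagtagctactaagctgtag
Tlr13: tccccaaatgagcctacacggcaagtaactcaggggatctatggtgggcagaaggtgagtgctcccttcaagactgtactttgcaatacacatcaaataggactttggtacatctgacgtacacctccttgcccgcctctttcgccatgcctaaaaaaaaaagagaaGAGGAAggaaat
GAGGAA is found in both, and TGANTCA in that of Tlr9. Of 32851 windows of 250 bases, 23.3% hold GAGGAA and 6.75% hold TGANTCA, and within their first 179 bases 17.1% and 4.89%. In all, 8 receptors matched an entry, with 10 windows, and Tlr4 and Tlr7 did not. GAGGAA was also in a window of Tlr1 and of Tlr8, the letters GGG, 5 bases of any kind and CC (NF-kB, 45.8% of all windows) in windows of Tlr2, Tlr3, Tlr5 and Tlr6, and GAAA, 2 bases of any kind and GAAA (interferon regulatory factors, 2.98%) in a window of Tlr6, again on both strands. A match of letters is a description and no evidence of binding.

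The adjusted p-values of Tlr4, Tlr9 and Tlr13 in HFD moved past 0.05 when a library was left out. Without HFD ARM replicate 1 they were 0.208, 0.204 and 0.167, and without HFD ARM replicate 2 they were 0.244, 0.135 and 0.17. Without HFD SM replicate 1, Tlr4 had 0.0919, Tlr9 0.05 and Tlr13 0.00137, and without HFD SM replicate 2, Tlr13 had 0.0532 while Tlr4 and Tlr9 had 0.000704 and 0.00183. Each kept its sign in all 4. With no filter on low counts they were 0.167, 0.134 and 0.115 in edgeR, Tlr4 had 0.101 in limma, and Tlr9 had 0.164 with one fit of 8 libraries. Tlr1, at 0.0531, moved either way. Its adjusted p was 0.0704 without HFD ARM replicate 1, 0.437 without HFD ARM replicate 2, 0.0832 without HFD SM replicate 1, 0.21 with no filter, 0.0992 with one fit of 8 libraries, 0.127 in DESeq2 and 0.0893 in limma. In edgeR it was 0.0399 without HFD SM replicate 2, 0.0388 with library totals, 0.0315 with a filter of 10 counts in every library and 0.0306 with a replicate block, each time under 1.5-fold.

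Whether ARM differed from SM by another amount in HFD than in ND was tested over all 8 libraries, as the interaction of cell type and diet. At an edgeR adjusted p under 0.05, 0 of 10 receptors were called against 0.165% of the 13358 genes tested, and 0 of 10 had an unadjusted p under 0.05, against 7.61% of all genes (the test was run in edgeR alone). With library totals 1 receptor had an unadjusted p under 0.05, against 7.31% of all genes, and with a replicate block 2, against 10.2%. Some did so too without HFD ARM replicate 1, ND ARM replicate 1, ND ARM replicate 2 or ND SM replicate 2. The count of all genes was 22, and between 0 (without ND SM replicate 2) and 102 (without ND ARM replicate 1) with 1 library left out, with 0 receptors called in each. The smallest p was that of Tlr2, whose log2 difference, HFD minus ND, was -0.23 (95% interval -0.46 to 0.00, edgeR adjusted p = 0.664). For Tlr13 the difference was -0.01 (95% interval -0.28 to 0.25), for Tlr9 0.09 (-0.32 to 0.50), and for Tlr4 -0.10 (-0.38 to 0.18). The smallest differences have no settled sign, since that of Tlr13 was 0.00 with DESeq2 size factors and 0.03 with library totals.

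The level of the receptors in HFD beside ND is given as values only, because each diet has its own table and the tables were not made alike, so that diet and table cannot be told apart. Between 32.3% and 32.9% of the genes had counts that were not whole numbers in the HFD libraries, and 8.55% to 9.36% in the ND libraries. The transcript length implied by count and FPKM was 1.02 to 1.08 times as long in HFD as in ND for the 10 receptors. The median log2 ratio of HFD over ND over 12343 genes was -0.12 in ARM and -0.15 in SM on the FPKM scale, and scaling as TMM-scaled counts moved it by 0.08 and 0.11.

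Tlr1, Tlr3, Tlr4 and Tlr6 had lower values in all HFD libraries than in all ND libraries of the same cell type, in both cell types and on the FPKM, TPM and TMM scales. The FPKM ratio of HFD over ND for Tlr4 was 0.626 in ARM and 0.647 in SM, which on the log2 scale was -0.55 and -0.48 relative to the median of all genes. For Tlr1 the ratio was 0.703 and 0.577 (-0.38 and -0.64 relative to the median), for Tlr3 0.651 and 0.697 (-0.50 and -0.37), and for Tlr6 0.776 and 0.669 (-0.24 and -0.43). Tlr8 was also lower in HFD ARM (ratio 0.860) and Tlr5 in HFD SM (0.785). That makes 5 of 10 receptors with all HFD libraries below ND in ARM, against 46.0% of all genes, and 5 of 10 in SM, against 49.5%. Tlr2 and Tlr7 had higher values in HFD SM than in ND SM (ratios 1.18 and 1.11). That makes 2 of 10 receptors with all HFD libraries above ND in SM, beside 3038 of 12343 genes on the FPKM scale. In ARM the Tlr2 libraries of the 2 diets overlapped as FPKM, but those of HFD were above as TPM and TMM-scaled counts. For Tlr7 in ARM and Tlr13 in both cell types the sign of the log2 ratio differed between scales, for example -0.07 for Tlr13 in SM as FPKM and 0.01 as TPM.

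**Figure D3:**
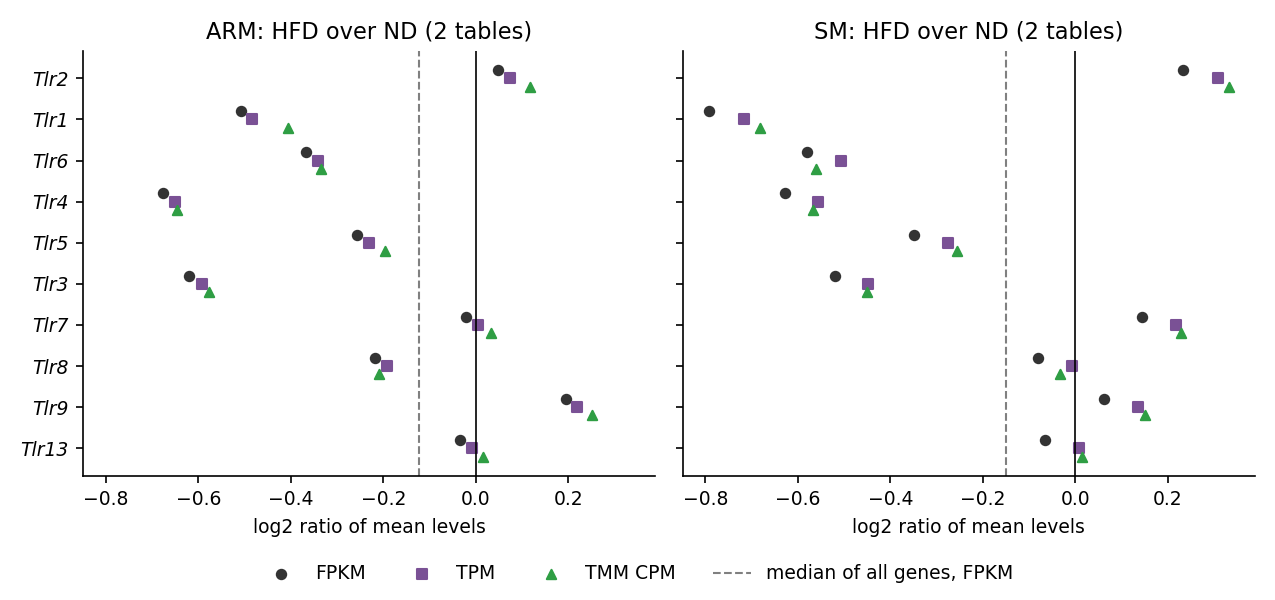
Log2 ratio of the mean level in HFD over ND for each receptor in ARM (left) and SM (right), as FPKM, TPM and TMM-scaled counts, with a dashed line at the median FPKM ratio of all genes (-0.12 and -0.15). Tlr1, Tlr3, Tlr4 and Tlr6 lie left of the dashed line in both panels, and Tlr2 lies right of 0.

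The rest of the pathway was read from 5 lists of genes. Of 89 tested in HFD, 9 were called and all 9 were higher in ARM, against 4.46% of all genes called higher and 0.292% called lower. Of 88 tested in ND, 11 were called and all 11 were higher, against 3.55% and 0.129%. No gene of these lists was called for a difference between diets, other than Ccl3 (-0.52, edgeR adjusted p = 0.025) and Cxcl10 (-0.49, 0.0337) when a replicate block was added.

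Coreceptors and trafficking genes help the receptors bind their ligands or reach the endosome, and their list of 16 also holds 2 Toll-like receptors outside the 10, Tlr11 and Tlr12. In HFD 2 of 16 were called higher, both at low levels, of which 1 is a receptor and 1 a coreceptor. Tlr12, an endosomal receptor for profilin, had 22 and 21 counts in ARM and 5 and 5 in SM (log2 fold change 2.10, edgeR adjusted p = 0.0159), and with 3, 8, 2 and 3 counts it was not tested in ND. Tlr11 was called in neither diet. Tril, a coreceptor of Tlr4, had 50 and 54 counts in ARM and 24 and 24 in SM (1.13, 0.0222), and in ND it was 0.90 (0.253). In ND 1 of 15 was called, Lbp, which carries lipopolysaccharide to Cd14, at 4.31 and 4.56 FPKM in ARM and 2.89 and 1.83 in SM (0.91, 0.0217). Both ARM libraries were above both SM libraries for each of the 3. Ctsb, an endosomal protease and the most abundant gene of the list (mean 3480 FPKM in HFD and 3050 in ND), had log2 fold changes of -0.02 and 0.02, with 0.007 in HFD by library totals. DESeq2 called 0 of the 3 (adjusted p = 0.113, 0.144 and 0.0605), and limma, which did not test Tlr12 and Tril, did not call Lbp (0.0616). With no filter Tlr12 and Tril were not called in edgeR (0.0766 and 0.0757), nor was Tril with one fit of 8 libraries (0.0509). Without any 1 of the HFD libraries Tlr12 and Tril lost their calls (adjusted p 0.0625 to 0.137 and 0.0547 to 0.193), as did Lbp without ND ARM replicate 1 (0.0539), ND ARM replicate 2 (0.178) or ND SM replicate 2 (0.197). In HFD Lbp was 0.71 (edgeR adjusted p = 0.0709) and not called, but called with a filter of 10 counts in every library (0.0445) or without HFD SM replicate 1 (0.0154).

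Adaptors and kinases carry the signal inward, and 0 of 27 were called in either diet by edgeR, DESeq2 or limma, with medians of -0.03 in HFD and 0.03 in ND. At an unadjusted p under 0.05, edgeR listed 7 in HFD and 6 in ND, against 23.2% and 14.9% of all genes. Map3k8, a kinase upstream of ERK and the most abundant of them, was at 86.3 and 93.1 FPKM in HFD ARM and 124 and 116 in HFD SM. Both ARM libraries were lower, by less than 1.5-fold (log2 fold change -0.47, edgeR adjusted p = 0.00165), and in ND it was -0.34 (0.0599). Ticam1, the adaptor of Tlr3 and of endosomal Tlr4, was at 18.5 and 21.5 FPKM in ND ARM and 13.4 and 15.3 in ND SM (log2 fold change 0.48, edgeR adjusted p = 0.0281), and passed both thresholds without ND ARM replicate 1 (0.59). In HFD it was at 30.3 and 30.7 FPKM in ARM and 25.2 and 25.7 in SM (0.24, edgeR adjusted p = 0.0419), which also passed the adjusted p under 1.5-fold. Ticam2 (-0.31, edgeR adjusted p = 0.0132) and Irak2 (0.26, 0.0273), chosen after their values were seen, passed the adjusted p in HFD under 1.5-fold, with -0.24 (0.226) and 0.31 (0.147) in ND.

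Of the 11 transcription factors, 0 were called in either diet by edgeR, DESeq2 or limma. At an unadjusted edgeR p under 0.05 there were 3 in HFD and 7 in ND, against 23.2% and 14.9% of all genes. The 3 of HFD had lower values in ARM. Of the 7 of ND, 4 had higher values (Rela, Rel, Nfkb1 and Nfkb2, subunits of NF-kB) and 3 lower (Fos, Jun and Irf1), and the list median was 0.01 in HFD and 0.11 in ND. Rela (0.38, edgeR adjusted p = 0.0479) and Irf1 (-0.36, 0.042) passed the adjusted p in ND under 1.5-fold, with 0.11 (0.339) and -0.22 (0.0974) in HFD, and these and the other subunits of NF-kB were chosen after their values were seen. Fos and Jun, subunits of AP-1, had the smallest p-values. Fos was at 850 and 950 FPKM in HFD ARM and 1183 and 1081 in HFD SM, and 698 and 750 in ND ARM and 1058 and 1100 in ND SM. Both ARM libraries were lower in each diet, with log2 fold changes of -0.36 in HFD and -0.57 in ND (edgeR adjusted p = 0.0109 and 0.00291), and Jun had -0.41 and -0.49 (0.00299 and 0.0204), all under 1.5-fold. Past 1.5-fold in ND were Fos without ND ARM replicate 2 (-0.64) or ND SM replicate 1 (-0.61), and Jun without ND ARM replicate 2 (-0.65).

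Of the negative regulators, 0 of 14 were called in HFD and 0 of 15 in ND by edgeR or DESeq2. Limma called 0 of 13 in each. In each diet 5 had an unadjusted edgeR p under 0.05, against 23.2% of all genes in HFD and 14.9% in ND. Dusp1, a phosphatase of MAP kinases, was the most abundant (mean 1230 FPKM in HFD and 752 in ND) with log2 fold changes of 0.18 and -0.06. Atf3, a repressor of inflammatory genes, had -0.25 in HFD (edgeR adjusted p = 0.0337) and -0.04 in ND (0.911), and Zc3h12a, an RNase that degrades cytokine mRNA, had 0.45 in ND (0.0164) and 0.11 in HFD (0.328), all under 1.5-fold. So were Nfkbia (0.21 in HFD, edgeR adjusted p = 0.0487, and 0.17 in ND, 0.487) and Tnfaip3 (0.20 in HFD, 0.099, and 0.42 in ND, 0.0268), chosen after their values were seen.

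Genes induced by Toll-like receptor signalling differed most of the 5 lists. In HFD 7 of 21 were called, all higher in ARM, with a list median of 0.43 beside -0.01 for all genes, and in ND 10 of 20, all higher, with a median of 0.54 beside -0.02. These genes also respond to other signals, and what raised them was not tested. Ccl3, a chemokine for monocytes, was at 945 and 809 FPKM in HFD ARM and 443 and 435 in HFD SM, and 622 and 617 in ND ARM and 219 and 228 in ND SM. Both ARM libraries of each diet were well above both SM libraries (log2 fold change 0.97 in HFD and 1.47 in ND, edgeR adjusted p = 7.13e-05 and 1.96e-06). The related chemokine Ccl4 had 1.01 and 1.38, and the cytokine Il1a had 0.80 and 1.18. Cxcl9 (1.10 and 1.21) and the interferon Ifnb1 (1.05 and 2.22) were called in both diets too. Ccl5 (0.95) and Nos2 (1.72) were called in HFD, and Cxcl10 (0.78), Cxcl1 (0.71), Cxcl2 (0.68), Ptgs2 (0.65) and Tnf (0.59) in ND, though no difference between diets passed the test without a replicate block. In the other diet Ccl5 was 0.39 in ND (edgeR adjusted p = 0.647), and in HFD Cxcl10 was 0.31 (0.0536), Cxcl2 0.34 (0.0146), Ptgs2 0.34 (0.0983) and Tnf 0.44 (0.00221). Nos2 was not tested in ND, where it had 5, 6, 12 and 1 counts. Cxcl2 was the most abundant (mean 3320 FPKM in HFD and 2640 in ND). The list summed to 9250 and 8610 FPKM in HFD ARM and 6370 and 6220 in HFD SM, and 8450 and 7770 in ND ARM and 5310 and 5080 in ND SM. Il12a was not analysed here in ND. Not every gene of the list was higher in ARM. Il6 and Il12b, chosen after their values were seen, had lower values in HFD ARM and were not called. Their log2 fold changes were -0.22 and -0.54 in HFD (edgeR adjusted p = 0.0885 and 0.385), and 0.18 and -0.31 in ND (0.541 and 0.839).

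Several of these calls rest on few counts, single libraries or the filter. Nos2 had 36, 26, 12 and 7 counts in the 4 HFD libraries and Ifnb1 31, 17, 5 and 5 in the ND libraries, and DESeq2 called neither (adjusted p = 0.108 and 0.161). With no filter edgeR lost Ccl5, Cxcl9, Ifnb1 and Nos2 in HFD (0.104, 0.0572, 0.0921 and 0.124) and Tnf in ND (log2 fold change 0.58), and with one fit of 8 libraries Nos2 (adjusted p = 0.101). Limma with no filter lost Ccl3 (adjusted p = 0.0704), Il1a (0.0535), Ccl5 (0.137), Cxcl9 (0.104), Ifnb1 (0.115) and Nos2 (0.12) in HFD. In ND it called 0 genes, so every ND call of this list was lost. In HFD, calls were lost without ARM replicate 1 for Ccl5 (adjusted p = 0.0637), Ifnb1 (0.107) and Nos2 (0.232), without ARM replicate 2 for Ccl5 (0.136), Cxcl9 (0.0508), Ifnb1 (0.13) and Nos2 (0.115), and without SM replicate 2 for Nos2 (0.113). In ND, they were lost without ARM replicate 1 for Ifnb1 (adjusted p = 0.108), without ARM replicate 2 for Cxcl9 (0.0996), Ptgs2 (log2 fold change 0.51) and Tnf (0.58), without SM replicate 1 for Ifnb1 (adjusted p = 0.237) and Ptgs2 (log2 fold change 0.56), and without SM replicate 2 for Ifnb1 (adjusted p = 0.181), Cxcl1 (log2 fold change 0.57) and Tnf (0.52). Cxcl1 in HFD had a log2 fold change of 0.58, just under the threshold. It was called with library totals (0.60), with a filter of 10 counts in every library (0.59), by limma (0.60), and without ARM replicate 2 (0.60) or SM replicate 1 (0.63).

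**Figure D4:**
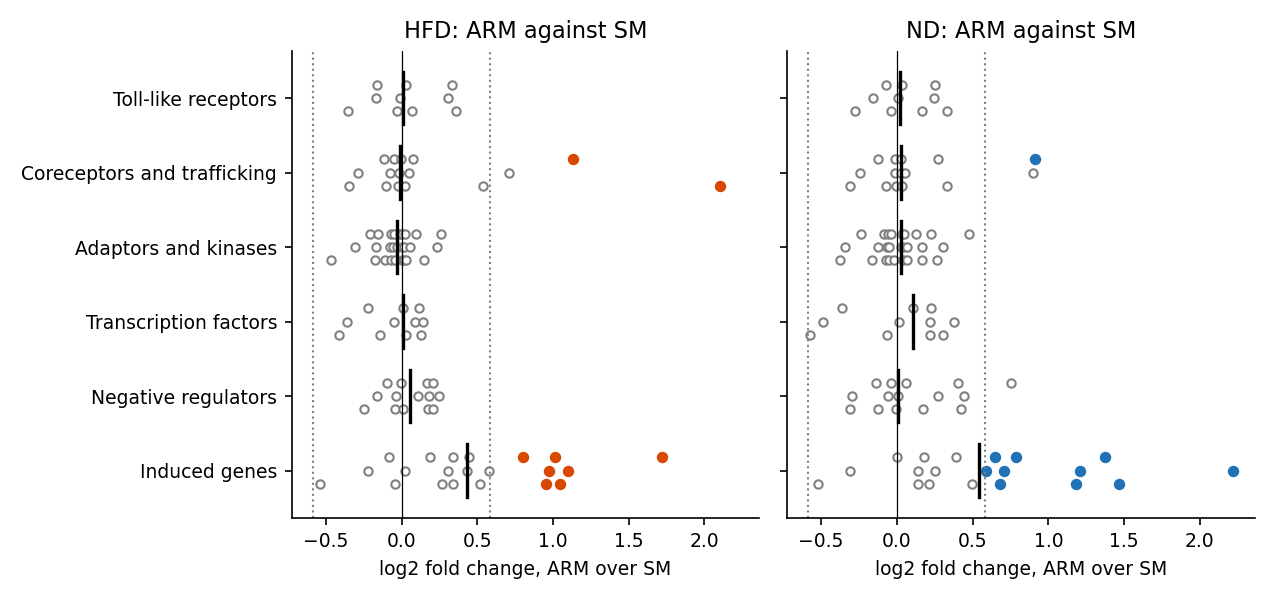
Log2 fold change of ARM over SM for each tested gene of the Toll-like receptors and of 5 pathway lists in HFD (left) and ND (right), with filled points for called genes, a black bar at each list's median and dotted lines at 1.5-fold. The receptors sit around 0 with none filled, and the induced genes have medians of 0.43 and 0.54 with 7 and 10 filled.

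Markers of other cells were read from 10 further lists, since ARM come from the adipocyte layer. Beside the counts at an unadjusted edgeR p under 0.05 given below, the share of all genes was 23.2% in HFD and 14.9% in ND. Of the 6 adipocyte markers, 6 were higher in ARM in HFD and 5 in ND. They summed to 68.4 and 76.0 FPKM in HFD ARM and 10.7 and 12.4 in HFD SM, and 71.0 and 124 in ND ARM and 29.3 and 37.8 in ND SM, with Cidec the most abundant in HFD (mean 11.5 FPKM) and Cfd in ND (36.5). The 6 were Adipoq, Plin1, Cidec, Lep, Cfd and Retn, and the one not called in ND was Retn (edgeR adjusted p = 0.05). All 6 endothelial markers (Pecam1, Cdh5, Kdr, Emcn, Tie1 and Egfl7) were higher in ARM in HFD and 0 of 6 were called in ND by edgeR or DESeq2 and 0 of 4 by limma, with 4 at an unadjusted edgeR p under 0.05. They summed to 35.1 and 34.0 FPKM in HFD ARM, 14.4 and 9.85 in HFD SM, 8.93 and 17.9 in ND ARM, and 7.42 and 8.65 in ND SM, with Cdh5 the most abundant (7.56 and 3.40). Fibroblast and progenitor markers were higher for 5 of 6 in HFD (Col1a1, Col1a2, Col3a1, Dcn and Lum) and 6 of 6 in ND (Pdgfra as well). They summed to 154 and 194 FPKM in HFD ARM, 113 and 99.5 in HFD SM, 208 and 301 in ND ARM, and 71.0 and 98.0 in ND SM, with Dcn the most abundant (74.2 and 103). Mesothelial markers were higher for 4 of 5 in ND (Msln, Upk3b, Wt1 and Lrrn4) and called for 0 of 5 in HFD by edgeR or DESeq2 and 0 of 3 by limma, with 1 at an unadjusted edgeR p under 0.05. They summed to 14.8 and 10.2 FPKM in HFD ARM, 12.1 and 6.30 in HFD SM, 15.1 and 20.6 in ND ARM, and 4.5 and 6.03 in ND SM, with Upk3b the most abundant (4.40 and 5.14).

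So adipocyte and fibroblast markers were called higher in ARM in both diets, endothelial markers in HFD and mesothelial markers in ND. The part of such RNA in any difference was not tested. A split by diet is not settled. Of the markers, only Lep was called for a difference between diets (1.80, edgeR adjusted p = 0.038), and it was lost without any 1 of the HFD libraries or of the ND SM libraries (0.0654 to 0.242). No endothelial or mesothelial gene was called for a difference between diets (smallest edgeR adjusted p = 0.584 for Kdr and 0.163 for Msln), though Msln, Upk3b and Lrrn4 were with a replicate block (0.00324, 0.00158 and 0.0176). That block also called such differences for Adipoq, Cfd and Cidec (0.00463, 0.0329 and 0.015), with larger log2 fold changes in HFD, and for Col1a1, Col1a2, Col3a1, Dcn and Lum (0.00617, 0.00324, 0.00208, 0.00188 and 0.0296), with larger ones in ND. Without ND ARM replicate 2 the same 3 adipocyte genes were called (0.0265, 0.00353 and 0.00691), and without ND ARM replicate 1 all of the 5 fibroblast genes except Lum (0.00998 to 0.0447). The uncalled values were positive too, at log2 fold changes of 0.35 (Egfl7) to 1.20 (Emcn) for endothelial markers in ND and 0.14 (Msln) to 0.79 (Krt19) for mesothelial markers in HFD.

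Other settings of edgeR called some of the uncalled markers. In ND these were Cdh5, Pecam1 and Tie1 with no filter (adjusted p = 0.00162, 0.00791 and 0.0437), and Cdh5, Pecam1, Tie1 and Emcn with a replicate block (1.25e-05, 0.000304, 0.00968 and 0.0208). In HFD it was Lrrn4 with a replicate block (0.0477). In ND Retn was called with library totals (0.0457), no filter (0.000271), a filter of 10 counts in every library (0.0492) and a replicate block (6.64e-07), and Krt19 with the last 3 (0.015, 0.0421 and 0.00211).

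Other settings also lost calls. In HFD edgeR with no filter lost Col1a1, Col1a2, Col3a1, Dcn and Lum (adjusted p = 0.199, 0.138, 0.0852, 0.0755 and 0.141), Egfl7 (0.0568) and Emcn (0.0956), and with one fit of 8 libraries Col1a1 (0.0529) and Dcn (0.0558). DESeq2 and limma each called 3 of the 5 fibroblast genes in HFD, DESeq2 without Col1a1 (0.192) and Col1a2 (0.0539), and limma without Col1a1 (0.0603) and Lum (log2 fold change 0.57). In ND DESeq2 lost Lep (0.0772), and limma lost Lep (0.0916), Plin1 (0.0836) and Wt1 (0.0578). Limma with no filter lost the endothelial calls of HFD (adjusted p 0.0729 to 0.123), the 5 fibroblast calls (0.119 to 0.268) and Retn (0.0791). In ND it called 0 genes, so every marker call of ND was lost.

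Some of these calls need single libraries. Without HFD ARM replicate 2 the 5 fibroblast calls of HFD were lost (log2 fold changes from 0.38 for Col1a1 to 0.58 for Dcn), as were, in ND without ARM replicate 2, Adipoq, Lep, Plin1 and Wt1 (edgeR adjusted p = 0.156, 0.229, 0.271 and 0.101). Dcn was also lost in HFD without SM replicate 2 (log2 fold change 0.57), and Lep and Plin1 in ND without SM replicate 1 (adjusted p = 0.255 and 0.0663). Retn was also called in ND without ARM replicate 1 (0.0222) or SM replicate 2 (0.00122), and in HFD without SM replicate 1 so were Lrrn4 (0.0341), Upk3b (0.00896) and Krt19 (0.0106), the last chosen after its values were seen. Without ND ARM replicate 1, Cdh5, Emcn, Kdr, Pecam1, Tie1 and Krt19 were called in ND (log2 fold changes from 0.93 for Kdr to 1.70 for Emcn). Cdh5 was also called without ND SM replicate 2 (0.86). Emcn lost its HFD call on the adjusted p without ARM replicate 1 or 2 (log2 fold changes 1.75 and 1.72). So did Egfl7 without ARM replicate 1 (1.38).

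Markers of other blood cells differed in few genes. The macrophage list had 0 of 8 called in either diet by edgeR, DESeq2 or limma, with 4 at an unadjusted edgeR p under 0.05 in HFD and 1 in ND. The 4 monocyte markers summed to 29.8 to 40.7 FPKM in HFD and 70.4 to 83.2 in ND, with Ccr2 the most abundant and Chil3 called higher in HFD ARM (log2 fold change 0.85, edgeR adjusted p = 0.0387), but not by DESeq2 (0.0624) or limma (0.0505). That call was also lost with no filter (0.202), with one fit of 8 libraries (0.145) and without HFD ARM replicate 1 (0.0887), HFD ARM replicate 2 (0.368) or HFD SM replicate 1 (0.106), and without ND SM replicate 2 Chil3 was called lower in ND ARM (-0.87). Plac8, chosen after its values were seen, was called higher in HFD ARM with a filter of 10 counts in every library (1.09, 0.0476). Neutrophil markers summed to 12.6 and 13.9 FPKM in HFD ARM, 8.55 and 7.82 in HFD SM, 10.5 and 31.1 in ND ARM, and 59.3 and 46.5 in ND SM. Their most abundant gene, S100a9, fell in ND ARM (log2 fold change -1.43, edgeR adjusted p = 0.0119), though not by DESeq2 (0.466) or limma (0.0611) nor without ND ARM replicate 1 (0.0516). In HFD S100a9 was 0.88 (edgeR adjusted p = 0.0677) and not called, though called by limma (0.74, 0.0284) and by edgeR with a filter of 10 counts in every library (0.0427). Its difference between diets was 2.29 (edgeR adjusted p = 0.104), also not called, but called with a replicate block (0.0182) and without ND ARM replicate 1 (0.0378) or 2 (0.00353). S100a8 and Retnlg, chosen after their values were seen, were called lower in ND with no filter (0.00699 and 0.0399) and with a replicate block (0.000218 and 0.00827). S100a8 was also called lower in ND without ARM replicate 2 (0.0148), where its difference between diets was called too (0.0246), and higher in HFD by limma at a pseudocount of 0.1 (0.0395).

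Conventional dendritic cell markers (0 of 5 called by edgeR or DESeq2 and 0 of 2 by limma in each diet, with 1 at an unadjusted edgeR p under 0.05 in HFD and 2 in ND) summed to 74.2 to 107 FPKM, nearly all of it Cd209a. Both HFD ARM libraries of Cd209a (69.0 and 70.1 FPKM) were below both HFD SM libraries (94.3 and 95.5), a difference that passed the adjusted p under 1.5-fold (log2 fold change -0.48, edgeR adjusted p = 0.00101), while in ND it was -0.19 (0.433). Xcr1, chosen after its values were seen, was called higher in ND ARM with a replicate block (1.01, 0.0438). B cell markers (0 of 3 called by edgeR or DESeq2 in each diet and, by limma, 0 of 2 in HFD and 0 of 1 in ND, with 1 at an unadjusted edgeR p under 0.05 in HFD and 0 in ND) summed to 3.66 to 5.85 FPKM, with Cd79b the most abundant, which limma called higher in HFD at a pseudocount of 0.1 (0.74, adjusted p = 0.0332). The 5 T and NK cell markers all averaged under 1 FPKM and none passed the filter on low counts. No marker of any list was at 0 in all libraries of a diet.

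Plasmacytoid dendritic cells are known for high levels of Tlr7 and Tlr9, so their markers stand beside these receptors. The study's own gate for macrophages of this tissue takes cells positive for CD45, CD11b and F4/80. How many plasmacytoid dendritic cells pass such a gate was not tested. The gate used for these libraries may be given in the study's figure of its sorting strategy, which was not read here. The 4 markers measured (Siglech, Ccr9, Ly6d and Spib, with Klk1 not analysed here) summed to 12.1 and 9.29 FPKM in HFD ARM, 12.3 and 9.81 in HFD SM, 18.5 and 29.3 in ND ARM, and 17.8 and 20.9 in ND SM, and 0 were called by edgeR or DESeq2 or had an unadjusted edgeR p under 0.05, of 2 tested in HFD and 1 in ND, nor was the 1 that limma tested in each diet. Siglech made up nearly all of it, and the other 3 averaged under 1 FPKM. Ccr9, chosen after its values were seen, did not pass the filter in ND and was called there by edgeR with no filter (2.83, adjusted p = 0.0336), one fit of 8 libraries (0.0412) or without ND ARM replicate 1 (0.0459). In HFD Siglech overlapped between ARM (11.3 and 8.91 FPKM) and SM (11.7 and 9.49). In ND the library with the most Siglech, ARM replicate 2 (28.6 FPKM), was also the one with the most Tlr9 (23.9 FPKM). In HFD the library with the most Siglech, SM replicate 1 (11.7 FPKM), had the least Tlr9 (16.8 FPKM). The link between them was not tested in either diet.

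**Figure D5:**
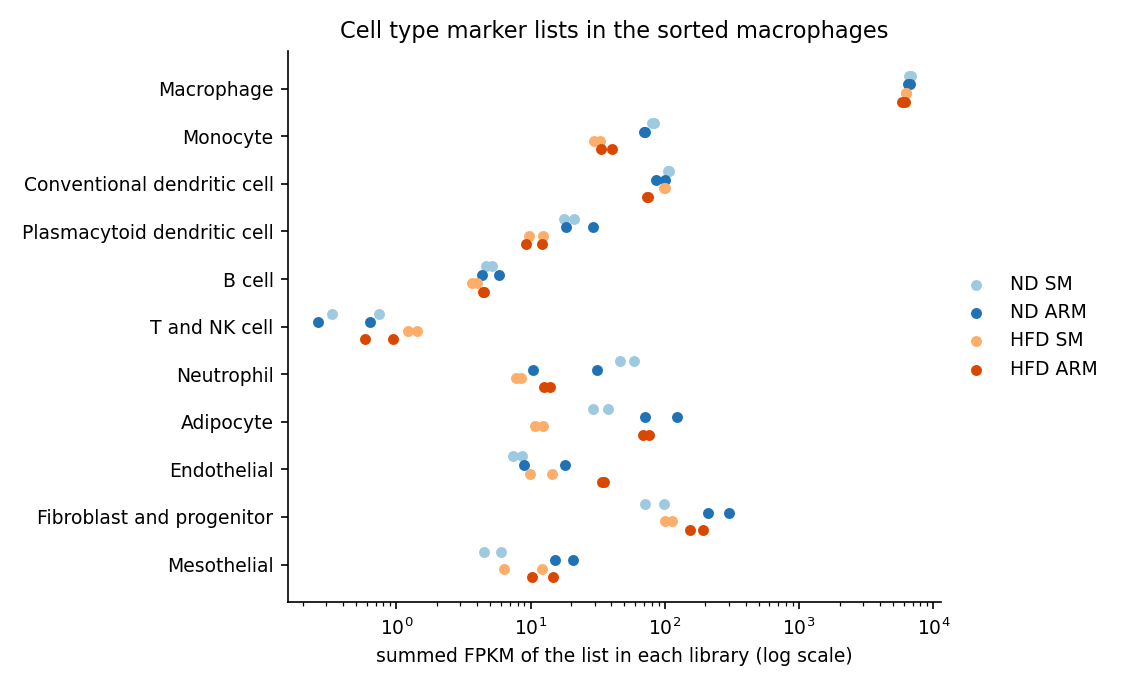
Summed FPKM (log scale) of 11 lists of cell type markers in each of the 8 libraries, with 1 point per library and colours for the 4 groups. Macrophage markers sum to 5890 to 6820 FPKM in all libraries, and adipocyte markers to 68.4 to 124 in ARM and 10.7 to 37.8 in SM.

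The genes nearest to Tlr13 in pattern, the receptor with the smallest p, were Myo1d, Aldh1a7 and Ly6c1. Pearson's r of log2 TMM-scaled counts, centred within each diet's table, was 0.993, 0.989 and 0.987 over 8 libraries, the highest of 12342 genes. Centring within each table leaves the difference between ARM and SM in place, and with so many genes high values are common. The values are a description of likeness alone.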

How the data were processed

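RNA-seq of sorted ARM and SM was analysed from a pair of deposited tables, one per diet, with 2 libraries per group. The authors deposited an estimated count per gene, with the reads of similar genes shared out and no scaling, and FPKM and TPM scaled to length and depth by the authors. Genome build mm10 is from the submitters' processing notes, and the aligner, counter and annotation are not given in the sources used here. The authors' group means (12 columns) were not used. Rounded counts were tested in edgeR 4.0.16 (R 4.3.3; filterByExpr, TMM, quasi-likelihood, Benjamini-Hochberg over all genes tested), within each table, and for the interaction over genes in both. DESeq2 1.42.0, limma 3.58.1 on log2(FPKM + 1), other scalings and filters, a replicate block and leaving out each library were alternatives. The code was tested on simulated data. A count was whole within 1e-06. Coordinates are from GENCODE M21, and matplotlib 3.10.9 (Python 3.11.15) made the plots. The 5 pathway and 11 marker lists and the members were chosen with earlier results of these data known. Named genes are the members, each list gene called in either diet, each list's most abundant gene, the smallest p in each list without a call, and the 3 genes nearest in pattern to the member with the smallest p.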

Additional observations from a re-analysis of the deposited data

Results flagged for a closer look

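Lep is an adipocyte marker that encodes the hormone leptin. With all 8 libraries, its difference between ARM and SM was called as differing between the diets. Its level was 6.49 and 7.77 FPKM in HFD ARM and 0.80 and 0.96 in HFD SM, and 1.66 and 2.15 in ND ARM and 0.67 and 1.01 in ND SM. The log2 fold change was 2.98 in HFD and 1.17 in ND, a log2 difference of 1.80 by the edgeR interaction test (adjusted p = 0.038). Left out in turn, 6 of the 8 libraries took the adjusted p past 0.05 (the highest, 0.242, without ND SM replicate 2).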

How the results depend on the processing

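Of the 2982 values recomputed under alternatives, 2636 were classed as the same, 147 lost a call, 68 gained one, 77 counts or ratios moved and 54 changed sign. A fold change classed as the same kept its direction and its side of the threshold. Counts classed as the same could still differ. Examples are all genes called in HFD (634, and 426 by DESeq2) and in ND (458, and 627 with no filter). The number of receptors called was 0 under each alternative run in either diet. The cause of a change was not tested unless the setting itself gives it, as fewer libraries do.

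The number of all genes called in HFD was 181 with no filter, 1017 with the log2 threshold of 0.6 and unadjusted p of the study's methods, 331 and 405 with limma at a pseudocount of 1 and 0.1, and 35 with limma and no filter. In ND it was 280 with DESeq2, 888 with the methods' threshold, 214 and 219 with limma, and 0 with limma and no filter, which listed 1915 genes at an unadjusted p under 0.05. With a replicate block it was 673 in HFD, 786 in ND and 187 for the difference between diets, and correlations of libraries with the same number (0.082 in HFD, 0.241 in ND) do not establish pairing in 2 pairs. Receptors at an adjusted p under 0.05 were 0 in HFD with no filter (edgeR or limma, 5 each at an unadjusted p under 0.05), where 1.28% and 0.209% of all genes passed. In ND they were 1 with one fit of 8 libraries, against 5.80% of all genes, and 3 with the replicate block, against 11.7%.

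Log2 fold changes near 0 changed sign. In HFD Tlr5 was 0.0188 with library totals, 0.0015 with a filter of 10 counts in every library and 0.0158, 0.016 and 0.0158 with limma at a pseudocount of 1, of 0.1 and with no filter, Tlr7 was 0.0001 with library totals, and Ctsb was 0.007 with library totals and 0.0059 in each of the 3 limma runs. In ND Tlr8 was -0.0025 with no filter. The difference between diets of Tlr13 was 0.0005 with DESeq2 size factors and 0.0343 with library totals.

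Leaving out each library in turn, where the lone sample left is assumed to vary like the other group, gave 214 to 637 genes called in HFD, 188 to 661 in ND and 0 to 102 for the difference (0 without ND SM replicate 2, where 1127 had an unadjusted edgeR p under 0.05), 0 to 3 receptors at an adjusted p under 0.05 in HFD, and 8 to 9 within 1.5-fold in HFD and 6 to 10 in ND. Log2 fold changes that changed sign in HFD ranged from -0.20 to 0.16 (Tlr5), -0.0049 to 0.14 (Tlr6), -0.12 to 0.068 (Tlr7), -0.0598 to 0.0208 (Ctsb), -0.0521 to 0.19 (Ccr2), -0.22 to 0.082 (Siglech), -0.11 to 0.15 (Rel), -0.25 to 0.67 (Msln) and -0.0011 to 0.95 (Upk3b). In ND they ranged from -0.046 to 0.11 (Tlr1), -0.11 to 0.0314 (Tlr3), -0.19 to 0.0524 (Tlr5), -0.0773 to 0.0928 (Tlr8), -0.0042 to 0.47 (Tlr9), -0.0347 to 0.0839 (Ctsb), -0.10 to 0.0192 (Atf3), -0.12 to 0.0022 (Dusp1), -0.10 to 0.025 (Itgam), -0.87 to 0.29 (Chil3), -0.0194 to 0.45 (Siglech), -0.25 to 0.79 (Egfl7) and -0.0605 to 0.12 (Unc93b1). For the difference between diets they ranged from -0.21 to 0.0346 (Tlr4), -0.14 to 0.22 (Tlr5), -0.095 to 0.36 (Tlr9) and -0.092 to 0.074 (Tlr13).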

Other observations

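A few further genes of the pathway lists were chosen after their values were seen. Cd180, a relative of Tlr4 that acts on its signalling, was at 47.6 and 50.5 FPKM in HFD ARM and 32.0 and 33.2 in HFD SM, and 79.3 and 78.8 in ND ARM and 63.9 and 65.8 in ND SM. All ARM libraries were above the SM libraries of their diet, and the log2 fold change was 0.54 in HFD (edgeR adjusted p = 0.000797) and 0.27 in ND (0.126), under 1.5-fold in both, though limma at a pseudocount of 0.1 called it in HFD (0.59, adjusted p = 0.00239). The anti-inflammatory cytokine Il10 had 0.43 in HFD and 0.50 in ND (edgeR adjusted p = 0.00411 and 0.00475), also under 1.5-fold. The Tlr4 cofactors differed in sign, with 0.05 in HFD and 0.33 in ND for Cd14 and -0.35 and -0.24 for Ly96, none with an edgeR adjusted p under 0.05. Unc93b1, which carries endosomal receptors to their place, was at 415 to 488 FPKM in all libraries, and Myd88 at 62.7 to 88.3.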
